A study of Mus musculus with 6 samples.

Results

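The T cell receptor genes and the genes of the CD3 complex were followed in RNA sequencing of hepatic CD11c+ cells from obese mice. Members were every gene in the count table whose symbol names a V, D or J segment of the alpha, beta, delta or gamma receptor locus or begins with Tcrg-, plus the constant genes Trac, Trbc1, Trbc2 and Trdc and the signalling chains Cd3d, Cd3e, Cd3g and Cd247. The rule found 167 of 31426 genes. It took 89 alpha V, 13 alpha J and 1 alpha C gene, 23 beta V, 14 beta J and 2 beta C genes, 7 gamma V, 3 gamma J and 4 gamma C genes, 4 delta V, 2 delta J and 1 delta C gene, and 4 CD3 or zeta chain genes. No D segment was in the table. Over all 6 libraries, 138 members had at least 10 counts and 29 had fewer.

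Male C57BL/6 mice of 2 genotypes were compared, with 3 libraries each. Atg5 CD11cKO mice were, per the methods of the study, homozygous for floxed Atg5 and for a CD11c-Cre transgene driven by Itgax regulatory sequence, so that the autophagy gene Atg5 was deleted in CD11c-expressing cells. WT mice were floxed littermates. Both genotypes had received a high-fat diet for 14 weeks, and the labels give an age of 4 to 8 weeks without saying at which point. CD11c+ liver cells were enriched on CD11c magnetic beads, and T cells were not the cells sought. CD11c is not restricted to dendritic cells and macrophages, since activated T cells and NK cells can carry it. The libraries are called by their label numbers, Atg5 CD11cKO 25, 26 and 27 and WT 21, 22 and 23. The labels do not say how many animals gave each library, so every p-value measures the spread between these libraries, which may be technical.

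Library totals were 31103044 to 32699529 counts in Atg5 CD11cKO and 31064570 to 34034675 in WT libraries. The CD11c gene Itgax, the marker of the isolation, was at 463 to 491 CPM (counts scaled to a common library size with TMM factors, the trimmed mean of M values) in Atg5 CD11cKO, against 431 and 443 CPM in WT 21 and WT 22 and 471 CPM in WT 23; without WT 23 it was higher in Atg5 CD11cKO, with a log2 fold change of 0.14 ± 0.04 (edgeR adjusted p = 0.015). Atg5 was at 21.3, 21.0 and 20.7 CPM in the Atg5 CD11cKO libraries, against 53.9 and 49.7 CPM in WT 21 and WT 22 and 22.0 CPM in WT 23. The library labelled WT 23 thus went against its label at the deleted gene. The source of the Atg5 counts left in the Atg5 CD11cKO libraries was not tested. The library labelled WT 23 also stood apart across all genes: the share of counts that would have to move between genes to make 2 libraries equal was 2.31% to 2.76% between WT 23 and the Atg5 CD11cKO libraries, against 14.8% to 15.0% between WT 23 and the other WT libraries. Each comparison is therefore given over all 6 libraries as labelled and again without the library labelled WT 23, and every direction drawn from the label WT over 6 libraries includes that library. No pair of libraries agreed within sampling noise over all genes, and each was counted as a sample, although technical repeats of a library could also differ by more than that noise.

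A T cell receptor is a pair of chains, alpha with beta or gamma with delta. Each chain gene is assembled in the developing T cell by joining a V and a J segment, with a D segment between them in the beta and delta chains, and the joined exon is then spliced to a constant (C) exon. The receptor reaches the surface only together with CD3 and zeta chains, which pass the signal into the cell. In mouse liver the alpha-beta T cells include invariant NKT cells, which use Trav11 joined to Traj18, and the organ is also rich in gamma-delta T cells. Because a clone and its progeny share the joined segments, the mix of segments in a library can reflect which T cells gave the RNA. Counts per gene do not show which segments were joined.

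The sequences of the segments on which the results turn show what separates them for short reads and where copies are alike. The J segments shown are the 5 most abundant beta J segments, the delta J segment that was called and Traj18 of the invariant NKT chain. They were read 5′ to 3′ on the coding strand from the GENCODE vM21 transcripts of the mm10 mouse genome. The capitals mark the codons of the Phe-Gly-X-Gly turn that closes the antigen-binding loop, found as the letters TTNGGNNNNGGN on the coding strand only, which 57 of 70 annotated mouse receptor J genes hold.
Trbj2-3: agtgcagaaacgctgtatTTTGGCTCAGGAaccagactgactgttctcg
Trbj2-1: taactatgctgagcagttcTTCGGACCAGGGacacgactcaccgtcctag
Trbj1-1: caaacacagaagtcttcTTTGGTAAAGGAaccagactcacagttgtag
Trbj1-2: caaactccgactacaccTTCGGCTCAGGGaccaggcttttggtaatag
Trbj2-7: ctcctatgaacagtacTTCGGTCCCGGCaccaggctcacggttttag
Trdj1: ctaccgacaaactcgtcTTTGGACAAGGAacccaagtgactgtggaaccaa
Traj18: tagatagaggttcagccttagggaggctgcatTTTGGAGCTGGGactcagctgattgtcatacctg
Trbj2-3 lies at chr6:41543223-41543271, Trbj2-1 at chr6:41542754-41542803 and Trdj1 at chr14:54123138-54123188, all on the plus strand.

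For V segments the last 60 bases of the annotated transcript are shown, since these run into the junction with D or J. The capitals mark the codon of the conserved cysteine at which the antigen-binding loop begins. Trbv17 and Trav8n-2 were the segments that were higher in Atg5 CD11cKO cells without WT 23, and Trbv12-2, Trbv13-2, Tcrg-V5 and Trdv4 were among those that were lower. Trav11 and Trav11d are shown because their transcripts had 0 mismatches over the 342 bases compared, so their counts cannot be separated by sequence.
Trbv17: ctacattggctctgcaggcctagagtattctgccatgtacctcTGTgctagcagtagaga
Trbv12-2: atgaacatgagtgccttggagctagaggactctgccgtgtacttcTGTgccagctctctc
Trbv13-2: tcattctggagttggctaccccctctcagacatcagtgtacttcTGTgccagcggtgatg
Trav8n-2: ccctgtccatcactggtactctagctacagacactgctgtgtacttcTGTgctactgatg
Trav11: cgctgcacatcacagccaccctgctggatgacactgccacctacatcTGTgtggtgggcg
Trav11d: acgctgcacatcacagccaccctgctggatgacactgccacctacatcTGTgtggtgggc
Tcrg-V5: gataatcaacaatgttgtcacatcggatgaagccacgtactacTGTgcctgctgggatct
Trdv4: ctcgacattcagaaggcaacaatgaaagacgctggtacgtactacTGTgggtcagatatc

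The receptor and CD3 genes together made up a small part of the RNA, and a smaller part in Atg5 CD11cKO cells than in WT 21 and WT 22. Their summed level was 203.5, 201.5 and 209.5 CPM in Atg5 CD11cKO 25, 26 and 27, against 415.3 and 409.7 CPM in WT 21 and WT 22 and 199.0 CPM in WT 23. The library labelled WT 23 lay just below the Atg5 CD11cKO range, and the other WT libraries lay far above it. In bulk RNA, fewer T cells, less receptor RNA per T cell and less such RNA from other cells, such as NK cells, cannot be told apart.

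Over the 6 libraries as labelled, 45 members passed the filter on low counts and 0 of them were called at an adjusted p under 0.05 with edgeR's quasi-likelihood test. The same test called 0.0% of all 17499 genes in either direction. At an unadjusted p under 0.05, 13 members were lower and 1, Trav7-4, was higher, beside 9.17% and 5.21% of all genes tested. DESeq2 called 2 members lower, Cd3g and Trdc. How many of all genes DESeq2 called was not counted, so this count has no share to be read beside. The median log2 fold change of the 45 members was −0.74, and that of all genes tested was −0.0086.

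Without the library labelled WT 23, 61 members passed the filter and 106 did not. Of the 61, 27 fell and 2 rose in Atg5 CD11cKO cells, beside 15.1% lower and 15.9% higher among all 18241 genes tested, and the median log2 fold change was −1.10 for the members and −0.014 for all genes tested. A segment abundant in a single genotype passes such a filter more easily, so these counts do not describe all 167 members. Of the 27 that fell, 10 reached the level of the filter only in WT 21 and WT 22 and so could be called in no other direction: Tcrg-V5, Trav15-1-dv6-1, Trav15d-2-dv6d-2, Trav15n-2, Trbj2-7, Trbv13-3, Trbv15, Trbv29, Trdj1 and Trdv5. Of the 2 that rose, Trav8n-2 reached that level only in the Atg5 CD11cKO libraries and so could be called only higher. Members that fell were in every class with a gene tested except gamma J: 4 of 4 CD3 and zeta genes, all 4 of the alpha, beta and delta C genes, 2 of 3 gamma C genes, 3 of 4 gamma V genes, 2 of 3 delta V genes and 1 of 1 delta J gene fell, as did 6 of 18 beta V, 2 of 8 beta J and 3 of 13 alpha V genes.

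**Figure D1:**
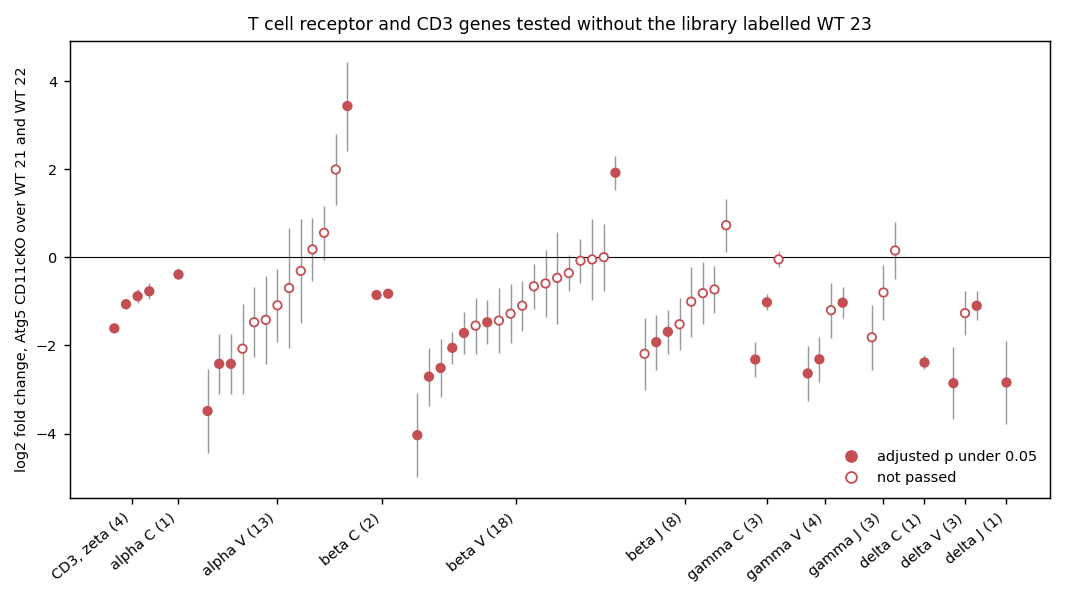
Log2 fold change of Atg5 CD11cKO over WT 21 and WT 22 (y axis) for the 61 members tested without the library labelled WT 23, by class (x axis, number tested in brackets). Bars are the standard error of the fit and filled points passed an adjusted p under 0.05 in edgeR; 27 filled points lie below 0 and 2 above it.

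All 4 CD3 and zeta genes fell, but by different amounts. Cd3g, the gamma chain of the CD3 complex, was at 26.2, 25.7 and 26.8 CPM in Atg5 CD11cKO, against 81.5 and 79.5 CPM in WT 21 and WT 22 and 25.3 CPM in WT 23. Its log2 fold change without WT 23 was −1.61 ± 0.08 (SE), with an adjusted p of 3.1e-08 in edgeR. The 3 Atg5 CD11cKO libraries and WT 23 lay close together, far below the remaining WT libraries. Cd3e, the epsilon chain that every surface receptor contains, was at 20.2, 21.4 and 22.5 CPM in Atg5 CD11cKO, against 45.2 and 44.4 CPM in WT 21 and WT 22 and 21.5 CPM in WT 23, a log2 fold change of −1.06 ± 0.10 without WT 23 (edgeR adjusted p = 8.4e-06). Cd3d and Cd247, the delta and zeta chains, gave −0.88 ± 0.16 and −0.77 ± 0.18. Neither Cd3d nor Cd247 overlapped between the Atg5 CD11cKO libraries and WT 21 and WT 22. Over the 6 libraries as labelled, the log2 fold changes of the 4 genes were −0.53 to −1.24; edgeR called 0 of them and DESeq2 called Cd3g.

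The alpha constant gene changed least among the called constant genes. Trac was at 19.8, 23.2 and 23.4 CPM in Atg5 CD11cKO, against 29.9 and 27.6 CPM in WT 21 and WT 22 and 20.5 CPM in WT 23. The log2 fold change without WT 23 was −0.37 ± 0.12, with an adjusted p of 0.035 in edgeR, and the call was lost when any further library was left out (edgeR adjusted p = 0.052 to 0.16). The beta constant genes fell together: Trbc1 was at 29.2, 33.8 and 30.5 CPM in Atg5 CD11cKO, against 53.5 and 57.3 CPM in WT 21 and WT 22 and 28.1 CPM in WT 23, a log2 fold change of −0.82 ± 0.09. Trbc2 had −0.85 ± 0.08. These 2 genes share sequence: 66.6% of the 31-base words of the Trbc1 transcript occur in Trbc2, so the split of reads between them depends on the counting. Trbc1 took 46.0%, 51.6% and 47.0% of the beta C counts in Atg5 CD11cKO and 46.9%, 48.5% and 48.1% in WT 21, 22 and 23, and these shares overlapped between genotypes.

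The delta constant gene Trdc had, with Tcrg-C1, the lowest log2 fold change of the constant genes tested. It was at 4.13, 3.85 and 4.15 CPM in Atg5 CD11cKO, against 20.9 and 21.1 CPM in WT 21 and WT 22. WT 23 was at 5.73 CPM, above every Atg5 CD11cKO library and far below WT 21 and WT 22. The log2 fold change was −2.37 ± 0.16 without WT 23 (edgeR adjusted p = 4.2e-07) and −1.98 over the 6 libraries as labelled (adjusted p = 0.34). Trdc shared 0.0% of its 31-base words with any other receptor gene, with words compared between coding strands only. On the opposite strand, Trdv5 overlaps it by 207 bases. As a share of the summed Trac and Trdc counts, Trdc made up 17.3%, 14.2% and 15.1% in Atg5 CD11cKO, against 41.2% and 43.3% in WT 21 and WT 22 and 21.8% in WT 23. Per kilobase of exon, Trdc was at 0.995 to 1.07 CPM in Atg5 CD11cKO and at 5.41 and 5.46 CPM in WT 21 and WT 22, while Trac was at 21.2 to 25.0 CPM in Atg5 CD11cKO and at 32.0 and 29.5 CPM in WT 21 and WT 22. Alpha constant RNA was thus above delta constant RNA per length in each of these libraries. The size of that gap depends on the annotated exon lengths, which were 935 bases for Trac and 3865 bases for Trdc. The difference between the 2 fold changes was not tested.

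**Figure D2:**
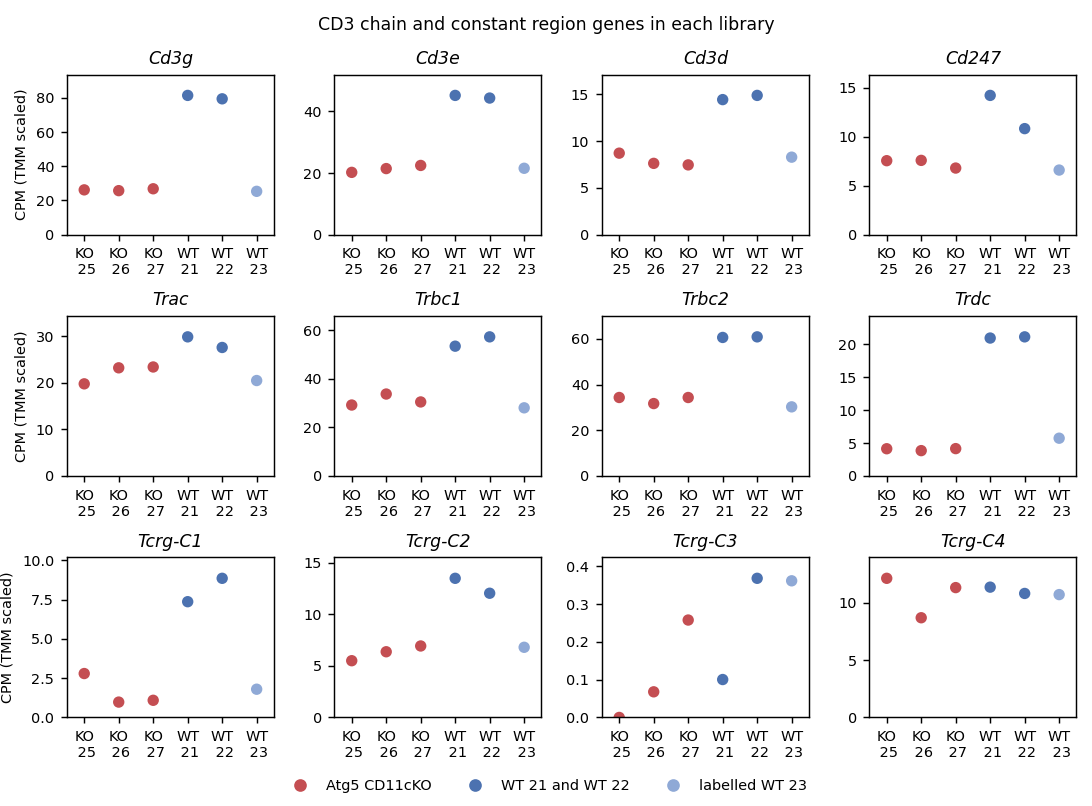
Level of the CD3 and zeta chain genes and of all constant genes (y axis, TMM-scaled CPM from 0) in each library (x axis). Red points are Atg5 CD11cKO, dark blue points WT 21 and WT 22 and light blue points the library labelled WT 23; Cd3g was at 25.7 to 26.8 CPM in red and at 81.5 and 79.5 CPM in dark blue, while Tcrg-C4 overlapped.

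The gamma locus on chromosome 13 is divided into clusters, and the genes are given here cluster by cluster. Differences between the clusters were not tested. In the order of the map, Tcrg-V7, Tcrg-V4, Tcrg-V6, Tcrg-V5, Trgj1 and Tcrg-C1 are followed by Tcrg-V3 and Tcrg-C3, then by Tcrg-C2, Trgj2 and Trgv2 on the opposite strand, and last by Tcrg-V1, Trgj4 and Tcrg-C4. The constant gene of the first cluster, Tcrg-C1, was at 2.79, 0.977 and 1.09 CPM in Atg5 CD11cKO, against 7.36 and 8.85 CPM in WT 21 and WT 22 and 1.80 CPM in WT 23. The groups did not overlap once WT 23 was left out, and the log2 fold change was −2.32 ± 0.39 (edgeR adjusted p = 0.00088). Of the V segments of the same cluster, Tcrg-V4 fell by 2.31 ± 0.51 on the log2 scale. Tcrg-V5, with 6, 4 and 6 counts in Atg5 CD11cKO, against 40 and 30 counts in WT 21 and WT 22 and 4 counts in WT 23, had −2.64 ± 0.62, but it entered the test only through the WT libraries. Tcrg-V6, the segment of an invariant gamma-delta population known for making IL-17 in mouse, had 3, 1 and 6 counts in Atg5 CD11cKO and 4, 9 and 4 counts in WT 21, 22 and 23. It was too low to be tested, and its counts overlapped.

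In the cluster of Tcrg-C2, the constant gene was also lower. Tcrg-C2 was at 5.51, 6.38 and 6.94 CPM in Atg5 CD11cKO, against 13.5 and 12.1 CPM in WT 21 and WT 22 and 6.81 CPM in WT 23, a log2 fold change of −1.02 ± 0.18 without WT 23. Its V segment Trgv2 had −1.03 ± 0.35, with an edgeR adjusted p of 0.044. Tcrg-C4 was the constant gene tested that was not called. It was at 12.1, 8.69 and 11.3 CPM in Atg5 CD11cKO, against 11.4, 10.8 and 10.7 CPM in WT 21, 22 and 23, with overlapping values and a log2 fold change of −0.04 ± 0.18 without WT 23 (edgeR adjusted p = 0.89). Trgj4 in that cluster had 0.16 ± 0.65 and its V segment Tcrg-V1 had −1.20 ± 0.63, and neither was called. As a share of gamma C counts, Tcrg-C4 made up 59.4%, 54.0% and 57.7% in Atg5 CD11cKO, against 35.2% and 33.7% in WT 21 and WT 22 and 54.4% in WT 23.

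Sequence sharing bears on these values. Tcrg-C1 and Tcrg-C2 shared 48.4% and 45.9% of their 31-base words with other receptor genes, Tcrg-V1 shared 44.2% and Tcrg-C4 shared 0.0%. Tcrg-C3 had at most 12.5 counts in any library and was not tested.

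**Figure D3:**
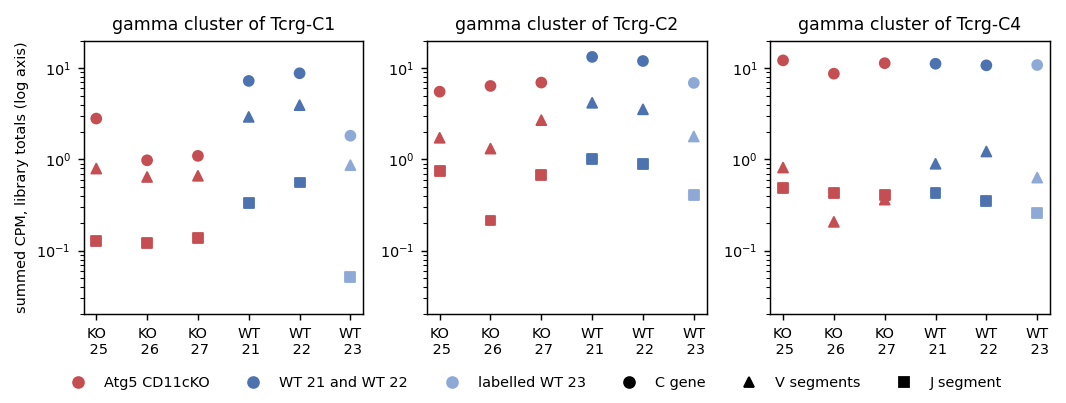
Summed level of the C gene (circles), V segments (triangles) and J segment (squares) of 3 gamma clusters (y axis, CPM on library totals, log axis) in each library (x axis), with colours for Atg5 CD11cKO, WT 21 and WT 22, and the library labelled WT 23. Tcrg-C1 was at 0.979 to 2.81 CPM on this scale in Atg5 CD11cKO and at 7.25 and 8.80 CPM in WT 21 and WT 22, and Tcrg-C4 overlapped between them.

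Among delta segments, Trdj1 had 6, 3 and 0 counts in Atg5 CD11cKO, against 28 and 18 counts in WT 21 and WT 22 and 8 counts in WT 23. It fell by 2.84 ± 0.94 on the log2 scale without WT 23, with an edgeR adjusted p of 0.040. However, Trdj1 entered that test only through the WT libraries and so could be called only lower. Trdv4 was at 1.67, 1.31 and 2.07 CPM in Atg5 CD11cKO, against 3.11 and 4.14 CPM in WT 21 and WT 22 and 1.46 CPM in WT 23, and fell by 1.10 ± 0.33. Trdv5, the delta V segment that lies behind the constant gene on the opposite strand, gave −2.86 ± 0.82, but 207 bases of it overlap the end of Trdc. Since the strand setting of the counting was not stated, reads of Trdv5 and Trdc cannot be told apart there. Trdv5 also entered the test only through the WT libraries. The Trav15 family, of which several members also carry a delta V name, summed to 20, 20.3 and 29 counts in Atg5 CD11cKO, against 118 and 175 counts in WT 21 and WT 22 and 27 counts in WT 23. Summed as a family, it fell by 2.59 ± 0.35 on the log2 scale without WT 23 (edgeR adjusted p = 0.00019). It was the alpha V family called, of 14 tested and 19 in the table.

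Beta V segments moved in both directions. Trbv17 was the beta V segment that rose: it was at 3.07, 3.66 and 2.95 CPM in Atg5 CD11cKO, against 1.12 and 0.591 CPM in WT 21 and WT 22, and at 3.69 CPM in WT 23. It rose by a log2 fold change of 1.92 ± 0.39 without WT 23 (edgeR adjusted p = 0.0031), and by 1.54 to 2.45 with each further library left out. Over the 6 libraries as labelled the groups overlapped and the log2 fold change was 0.85 (edgeR adjusted p = 0.50). Trbv17 shared 0.0% of its 31-base words with any other receptor gene. Trbv17 took 27.8% (exact 95% interval 23.2 to 32.9), 29.6% (25.2 to 34.3) and 26.0% (21.6 to 30.9) of all beta V counts in Atg5 CD11cKO, against 5.0% (3.53 to 6.86) and 3.25% (1.99 to 4.97) in WT 21 and WT 22 and 28.6% (24.3 to 33.3) in WT 23. Such intervals cover counting error only, since reads are not independent molecules. It was the most used beta V segment in the 3 Atg5 CD11cKO libraries and in WT 23.

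The other abundant beta V segments fell or were not called. Trbv12-2 was at 0.699, 0.771 and 0.958 CPM in Atg5 CD11cKO, against 3.97 and 2.75 CPM in WT 21 and WT 22 and 0.890 CPM in WT 23, and fell by 2.05 ± 0.37 on the log2 scale without WT 23. It was the most used segment of WT 21 and WT 22, with 17.8% and 15.1% of beta V counts, and took 6.38%, 6.16% and 8.31% in Atg5 CD11cKO. Trbv13-2, the V-beta-8.2 segment that many mouse invariant NKT cells use, was at 0.421, 0.805 and 0.525 CPM in Atg5 CD11cKO, against 2.21 and 1.65 CPM in WT 21 and WT 22 and 0.635 CPM in WT 23, with −1.72 ± 0.47 (edgeR adjusted p = 0.017). Trbv13-3, Trbv29 and Trbv15 had −2.71 ± 0.66, −2.51 ± 0.66 and −4.04 ± 0.96, but they entered the test only through the WT libraries. Trbv15 rested on 1, 0 and 2 counts in Atg5 CD11cKO, against 21 and 17 counts in WT 21 and WT 22 and 3 counts in WT 23. Trbv16 and Trbv19, which are among the 5 most abundant beta V segments, had −0.36 ± 0.40 and −0.08 ± 0.50 and overlapped between genotypes.

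**Figure D4:**
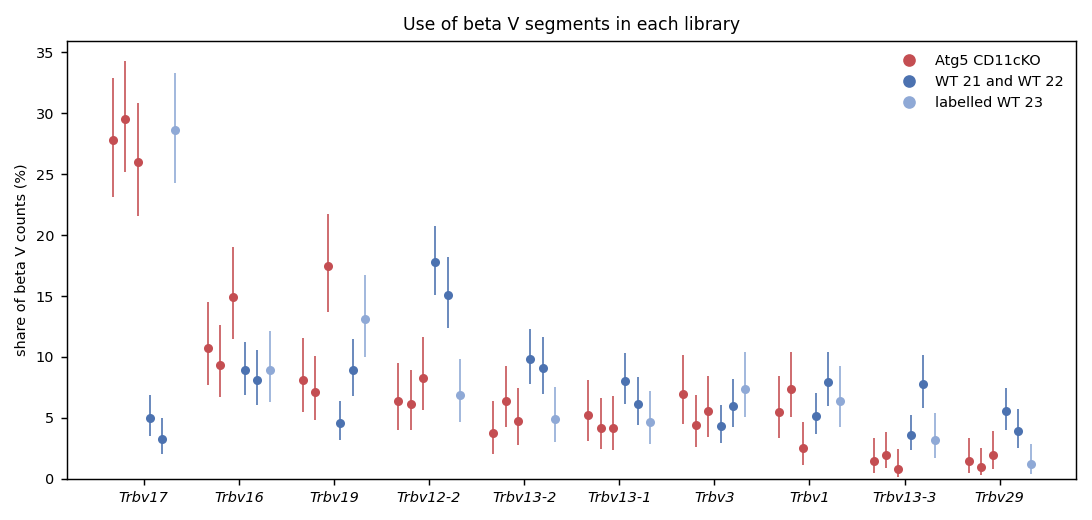
Share of beta V counts taken by 10 beta V segments (y axis, percent; x axis, segments), with points for each library in the order Atg5 CD11cKO 25, 26 and 27 (red), WT 21 and 22 (dark blue) and WT 23 (light blue). Bars are exact 95% binomial intervals for counting error; Trbv17 took 26.0% to 29.6% in red, 3.25% and 5.0% in dark blue and 28.6% in light blue.

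A second segment of the beta locus stood out in its share. Trbj2-3 had 25, 17.5 and 25 counts in Atg5 CD11cKO, against 11 and 17 counts in WT 21 and WT 22 and 36 counts in WT 23, and its level was not called without WT 23 (0.73 ± 0.60, edgeR adjusted p = 0.41). As a share of beta J counts it was at 21.9%, 16.2% and 21.9% in Atg5 CD11cKO, against 5.16% and 7.14% in WT 21 and WT 22 and 27.7% in WT 23. The exact 95% interval was 14.7 to 30.6 for Atg5 CD11cKO 25 and 9.72 to 24.7 for Atg5 CD11cKO 26, and the interval of Atg5 CD11cKO 26 overlapped that of WT 22, 4.22 to 11.2. Trbj2-1 went the other way, with 12, 14 and 15 counts in Atg5 CD11cKO, against 44 and 48 counts in WT 21 and WT 22 and 12 counts in WT 23, and fell by 1.69 ± 0.50 on the log2 scale (edgeR adjusted p = 0.024). Trbj2-7 gave −1.92 ± 0.63 and was called, but it entered the test only through the WT libraries. Trbj1-1 and Trbj1-2 gave −0.73 ± 0.53 and −1.52 ± 0.59 and were not called. The calls of Trbj2-1 and Trbj2-7 were lost when any further library was left out, with edgeR adjusted p of up to 0.082 and 0.13.

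The library labelled WT 23 shared its use of beta V segments with the Atg5 CD11cKO libraries. The distance in use, the percent of beta V counts that would have to change segment to make 2 libraries equal, was 13.5% to 22.7% between Atg5 CD11cKO libraries and 12.3% to 18.0% between WT 23 and Atg5 CD11cKO. It was 17.3% between WT 21 and WT 22. Between WT 23 and these 2 WT libraries it was 36.7% and 38.7%, and between Atg5 CD11cKO and them it was 34.3% to 42.5%. For alpha V families the distance was 16.8% to 19.0% between Atg5 CD11cKO libraries, 15.8% to 21.8% between WT 23 and Atg5 CD11cKO and 26.7% to 26.8% between WT 23 and the other WT libraries. With both measures, the distances from WT 23 to WT 21 and WT 22 lay above all those from WT 23 to Atg5 CD11cKO. The chi-square between libraries over its degrees of freedom, which is near 1 for sampling noise alone, was 1.71 to 3.28 for beta V between Atg5 CD11cKO libraries and 3.21 between WT 21 and WT 22. For alpha V families it was 1.90 to 2.48 and 2.47 for the same pairs, and for beta J it was lower, at 1.47 to 1.64 and 1.18. Use of V segments thus varied between libraries of a genotype by more than independent counts would. Since reads are not independent molecules, this need not be a difference between samples.

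**Figure D5:**
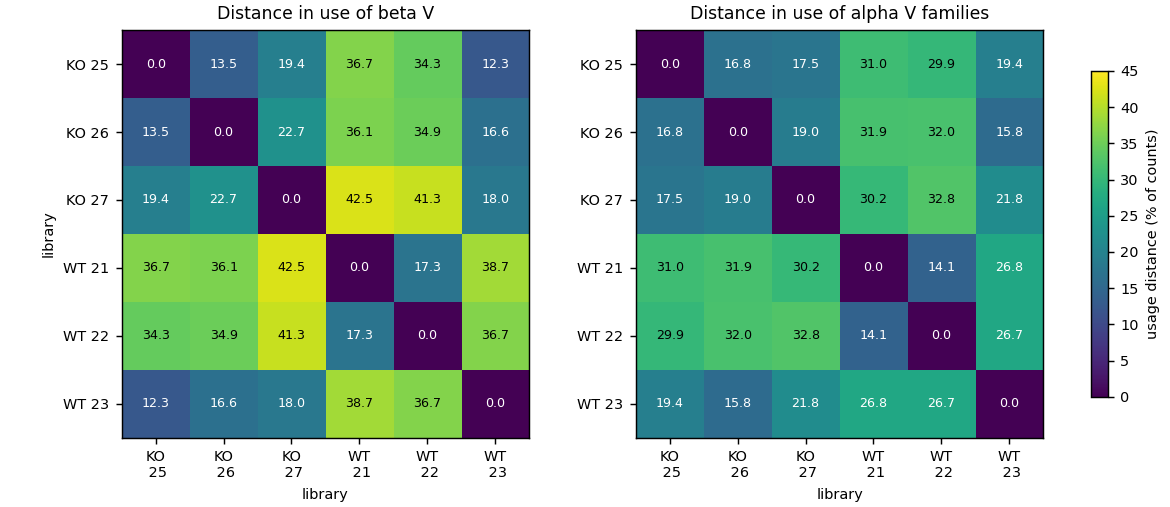
Distance in the use of beta V segments (left) and alpha V families (right) between each pair of libraries (both axes list the libraries, colour and number give the percent of counts that would have to change segment). Atg5 CD11cKO 25, 26 and 27 and the library labelled WT 23 were 12.3% to 22.7% apart for beta V, and WT 21 and WT 22 were 34.3% to 42.5% away from these 4 libraries.

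Alpha V segments were shallow, and many could not be separated. The alpha V sum was 9.61, 8.97 and 10.4 CPM in Atg5 CD11cKO, against 15.1 and 17.1 CPM in WT 21 and WT 22 and 8.03 CPM in WT 23, spread over 89 segments. The locus holds long repeated blocks, and 24 alpha V segments formed 12 pairs with the same count in all libraries, each pair with a single transcript sequence in the annotation. Trav15n-2 and Trav15d-2-dv6d-2 were such a pair, so their identical log2 fold changes of −2.42 ± 0.69 are a single measurement counted as 2 of the 27 lower members. Trav15-1-dv6-1 fell as well, by 3.49 ± 0.95. These Trav15 segments entered the test without WT 23 only through the WT libraries. Trav8n-2 was at 0.448, 0.864 and 0.750 CPM in Atg5 CD11cKO, against 0 and 0.110 CPM in WT 21 and WT 22 and 0.797 CPM in WT 23, and rose by 3.44 ± 1.01 (edgeR adjusted p = 0.023). However, Trav8n-2 entered the test without WT 23 only through the Atg5 CD11cKO libraries. The Trav8 family summed over its 5 segments had 19, 36 and 25 counts in Atg5 CD11cKO, against 2 and 19 counts in WT 21 and WT 22 and 34 counts in WT 23, and was not called (1.40 ± 0.79, edgeR adjusted p = 0.22). Trav7-4 (2.0 ± 0.80), Trav12-2 (−1.47 ± 0.80) and Trav13-4-dv7 (0.56 ± 0.61) were not called either.

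The segments of the invariant NKT chain showed no difference detectable at this depth. Trav11 had 16.0, 19.1 and 7.89 counts in Atg5 CD11cKO, against 17.4 and 8.82 counts in WT 21 and WT 22 and 1.27 counts in WT 23. The identical Trav11d had 0.01, 0.91 and 9.11 counts in Atg5 CD11cKO, against 0.63, 10.2 and 1.46 counts in WT 21, 22 and 23. The Trav11 family, which adds up the copies, came to 16, 20 and 17 counts in Atg5 CD11cKO, against 18 and 19 counts in WT 21 and WT 22 and 4 counts in WT 23. Its log2 fold change was −0.01 ± 0.57 without WT 23 (edgeR adjusted p = 0.99) and 0.44 ± 0.64 over the 6 libraries as labelled, with overlapping values in both cases. Traj18, its partner segment, had 1, 7 and 6 counts in Atg5 CD11cKO and 4, 7 and 10 counts in WT 21, 22 and 23, and was not tested. Only 13 of the 60 annotated alpha J genes were in the table, and their sum was 0.576 to 0.911 CPM in Atg5 CD11cKO and 0.870 to 1.02 CPM in WT libraries. For the chain of MAIT cells, Trav1 had 15, 10 and 6 counts in Atg5 CD11cKO and 8, 3 and 5 counts in WT 21, 22 and 23, and Traj33 had 1, 1 and 0 counts in Atg5 CD11cKO and 6, 0 and 0 counts in WT 21, 22 and 23. Both segments were too low to be tested.

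Other genes of the T cell receptor pathway were read against the same 15.1% lower and 15.9% higher of all genes tested without WT 23. Of 30 genes of proximal signalling and co-receptors, 16 (53.3%) fell and 2 (6.67%) rose, with a median log2 fold change of −0.61. Cd4, the co-receptor for MHC class II that dendritic cells and macrophages can also carry, was at 24.3, 23.0 and 19.0 CPM in Atg5 CD11cKO, against 68.9 and 75.8 CPM in WT 21 and WT 22 and 19.6 CPM in WT 23, with −1.71 ± 0.11. Sh2d2a, an adaptor of activated T cells, had −1.54 ± 0.10, and the kinases Zap70, Lck and Fyn had −1.09 ± 0.15, −0.76 ± 0.07 and −0.57 ± 0.04, all called. Lcp2 and Rasgrp1, which are also expressed outside T cells, rose by 0.60 ± 0.05 and 0.91 ± 0.09. Other genes of this list were not called, among them Cd5 (−0.05 ± 0.25), Trat1 (−0.15 ± 0.31), Themis (0.51 ± 0.50) and Cd28 (0.61 ± 0.27). Of 14 T cell transcription factors, 6 (42.9%) fell and 1 (7.14%) rose. Lef1, a factor of naive T cells, fell by 1.84 ± 0.24 on the log2 scale, and Zbtb7b, which directs the CD4 lineage, rose by 0.94 ± 0.15. Tcf7 (0.33 ± 0.18) and Bcl11b (−0.43 ± 0.21) were not called. Dntt, the polymerase that adds bases at V(D)J junctions, was at 8.01, 7.17 and 10.7 CPM in Atg5 CD11cKO, against 37.1 and 25.7 CPM in WT 21 and WT 22 and 6.45 CPM in WT 23, with −1.86 ± 0.20. It was the gene tested of 4 in the recombination list. Rag1, Rag2 and Ptcra had at most 19, 4 and 6.03 counts in any library and were too low to be tested. Which cells gave the Dntt RNA was not tested. Of 10 NKT and gamma-delta T cell genes tested, 2 (20%, near the share of all genes) fell and 0 rose in edgeR. At an unadjusted p under 0.05 in edgeR, 5 were lower and 0 higher, beside 3640 lower and 3789 higher of all 18241 genes tested. The 2 that fell were Cd1d1 and Klrb1c. Cd1d1, which presents lipids to NKT cells and is made by many other cells, had −0.74 ± 0.07. Klrb1c, the NK1.1 receptor that is also in the NK cell list, had −1.44 ± 0.07. Zbtb16, the transcription factor of NKT cells, had −0.86 ± 0.33 and was not called (edgeR adjusted p = 0.067).

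Markers of several other cells differed between the same libraries. Their edgeR calls without WT 23 are read beside 15.1% lower and 15.9% higher of all genes tested. Summed levels weigh abundant markers most and do not measure cell numbers. The 16 NK cell and ILC1 markers summed to 859 to 870 CPM in Atg5 CD11cKO, against 2132 and 2085 CPM in WT 21 and WT 22 and 861 CPM in WT 23, and 10 of them fell and 1, Klra4, rose. The median log2 fold change of the 16 without WT 23 was −0.48, with 13 negative and 3 positive. Gzmb, a granule protease, had −2.57 ± 0.04. It was at 109 to 116 CPM in Atg5 CD11cKO, against 680 and 672 CPM in WT 21 and WT 22 and 109 CPM in WT 23. Gzma had −2.09 ± 0.05. Eomes and Klra8 had 0.59 ± 0.29 and 1.07 ± 0.44 and were not called. Ncr1, a defining receptor of NK cells and ILC1, had −0.26 ± 0.09. The call of Ncr1 was lost when any further library was left out, and that of Klra4 held in 3 of 5 such fits. NK cells can carry RNA of CD3 chains and of unrearranged receptor constant genes. The 12 plasmacytoid dendritic cell markers summed to 940 to 957 CPM in Atg5 CD11cKO, against 2188 and 2159 CPM in WT 21 and WT 22 and 963 CPM in WT 23, with 11 lower and 1, Il7r, higher. Which cells, T cells among them, gave the Il7r RNA was not tested. The 14 hepatocyte markers were at 1039 to 1052 CPM in Atg5 CD11cKO, against 2502 and 2472 CPM in WT 21 and WT 22 and 1019 CPM in WT 23, with 13 lower. The 8 cDC1 markers summed to 2719 to 2786 CPM in Atg5 CD11cKO, against 3840 and 3881 CPM in WT 21 and WT 22 and 2737 CPM in WT 23, with 7 lower and 1 higher. The 8 neutrophil markers were at 30.8 to 34.1 CPM in Atg5 CD11cKO, against 78.5 and 82.6 CPM in WT 21 and WT 22 and 32.4 CPM in WT 23, with 4 lower. The 12 Kupffer cell and macrophage markers were higher in sum, at 11861 to 11940 CPM in Atg5 CD11cKO, against 6119 and 6011 CPM in WT 21 and WT 22 and 11584 CPM in WT 23, with 6 lower and 6 higher. The median log2 fold change of these 12 without WT 23 was 0.12. The 12 B cell markers overlapped between genotypes: they summed to 82.9 to 101 CPM in Atg5 CD11cKO and to 99.9, 99.1 and 92.6 CPM in WT 21, 22 and 23, with 0 called by edgeR. At an unadjusted p under 0.05 in edgeR, 3 of the 12 were lower, beside 3640 of all 18241 genes tested without WT 23. The part of these cells in the receptor results was not tested.

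The beta locus also contains genes that are no receptor genes, the trypsinogens of the exocrine pancreas, and these differed far more than the receptor segments beside them. The 15 other genes with at least 10 counts between Trbv1 and Trbv31 (chromosome 6, bases 40891229 to 41558453) summed to 78.8, 84.9 and 82.4 CPM in Atg5 CD11cKO, against 3989 and 3940 CPM in WT 21 and WT 22 and 72.1 CPM in WT 23. Prss2, Try4, Try5 and 2210010C04Rik had log2 fold changes of −5.43, −5.93, −5.33 and −5.85 without WT 23. The beta C genes in the same locus had −0.82 and −0.85. Prss2 lies 8784 bases from Trbj1-1, Try4 lies 20278 bases from Trbv30 and 2210010C04Rik lies 11830 bases from Trbv2. The 18 pancreatic acinar genes outside the locus all fell as well, with a median of −5.49, beside 15.1% lower among all genes tested without WT 23. The part of pancreatic RNA in the receptor results was not tested.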

How the data were processed

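PolyA RNA of hepatic CD11c+ cells was sequenced in 6 libraries. Per the submitters' notes, the tools were Partek, STAR (2.5.3a) and bcl2fastq (2.17.1.14) with build mm10, and the authors deposited estimated counts per gene, which need not be whole. Not given in the sources used here were the counting step, its annotation and its strand setting. A deposited table of normalized values was not used. Counts were rounded and tested with edgeR 4.0.16 (R 4.3.3, filterByExpr, TMM, quasi-likelihood F test, two-sided, Benjamini-Hochberg over all genes tested, called at an adjusted p under 0.05), once over 6 libraries and once leaving out WT 23. CPM are from the fit of 6 libraries. The tests were tried on simulated counts first. All 163 receptor gene members matched GENCODE vM21. Sums and shares got no test; shares used rounded counts. Alternatives were DESeq2 1.42.0, limma-voom (limma 3.58.1), RLE factors, library totals, other filters, V segments summed by family and leaving out each library.

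Named were the CD3, zeta and constant genes, the invariant segments, the 5 most abundant segments per V and J class, up to 5 called members with the largest change per direction, up to 4 genes per list and the trypsinogens; other genes were named after their values were seen. Members, lists and the comparison without WT 23 were chosen with earlier results of these data known.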

Additional observations from a re-analysis of the deposited data

How the results depend on the processing

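No paired analysis was possible because the libraries of the genotypes share no replicate number. Over the 6 libraries as labelled, 0 members were called lower and 0 higher. DESeq2 called 2 lower, and how many of all genes it called was not counted. Leaving out each library gave 0 to 27 lower and 0 to 2 higher, with 27 and 2 without WT 23. Without WT 23, the counts of 27 lower and 2 higher became 13 and 1 with a filter of 1 CPM in 3 libraries, which tests fewer members, and 1 higher with V segments summed by family. Leaving out a further library gave 16 to 20 lower and 1 to 2 higher, with 16 lower and 1 higher without WT 21, 17 lower without WT 22 and 1 higher without Atg5 CD11cKO 27; the cause was not tested, beyond the smaller number of libraries. DESeq2, limma-voom, RLE factors and library totals called 26, 29, 29 and 29 members, all among the 29. The calls of Cd3d, Cd3e, Cd3g, Trbc1, Trbc2, Trdc, Tcrg-C1, Tcrg-C2, Trbv12-2 and Trbv17 held with every further library left out; the other members called and named lost theirs with at least 1 left out, and Trav8n-2 lost its call without WT 21 and without Atg5 CD11cKO 27 (2.51 to 7.47 on the log2 scale). Genes near 0 changed sign without being called when a library was left out. Over the 6 libraries as labelled, these were Trbv16 (−0.38 to 0.038), Trbj2-3 (−0.23 to 0.73) and Tcrg-C4 (−0.125 to 0.10). Without WT 23 they were Trav11 (−0.23 to 0.75), Trbv19 (−0.56 to 0.30) and Tcrg-C4 (−0.14 to 0.086). Class sums kept their direction under every alternative run. Most alpha segments had too few counts to be tested singly.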
